A study of Fukomys damarensis and Heterocephalus glaber and Mus musculus with 160 samples.

Results

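The histone marks H3K4me3, H3K27ac and H3K4me1 were compared with one another in the liver of the Damaraland mole-rat (Fukomys damarensis), using every deposited peak list whose title names that species, liver and a histone mark. These were 12 of the 116 peak lists of the series: 2 of H3K4me3 (animals DMR1 and DMR4), 5 of H3K27ac and 5 of H3K4me1 (both from animals DMR1, DMR2, DMR3, DMR4 and DMR6). The series mapped regulatory chromatin of mole-rats, guinea pig and mouse by chromatin immunoprecipitation and sequencing (ChIP-seq), in which an antibody recovers crosslinked chromatin and places with more sequenced fragments than an untreated input library are listed as peaks. All animals were wild-type adults. Their estimated ages were 48 months for DMR1, DMR4 and DMR6 and 36 months for DMR2 and DMR3, and DMR6 was female and the others male. Heart lists of the same species, naked mole-rat liver lists and 8 transcription factor lists from liver of DMR1 and DMR4 were used for comparison. The heart lists came from DMR1, DMR2, DMR3, DMR4 and a male, DMR11, with an estimated age of 48 months. The naked mole-rats were younger males, NMR30, NMR31, NMR32, NMR34 and NMR35, of 13, 14, 17, 17 and 15 months, so age and species cannot be told apart between the livers.

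The amino-terminal tail of histone H3 carries the modifications studied. Trimethylation of lysine 4 (H3K4me3) accumulates around transcription start sites, acetylation of lysine 27 (H3K27ac) is found at active promoters and active enhancers, and monomethylation of lysine 4 (H3K4me1) is the usual mark of enhancers, whether active or primed. Because lysine 4 of one tail holds either 1 or 3 methyl groups, strong promoters are known to carry H3K4me3 at the centre with H3K4me1 to the sides. Each library came from a piece of whole liver, so the share of cells that carry a mark and the amount per cell cannot be told apart, nor does an overlap of lists show that both marks sat in the same cell.

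The lists differed in length and in peak width before any comparison of marks. H3K4me3 gave 35216 peaks in DMR1 and 28820 in DMR4. H3K27ac gave 114466, 93145, 84711, 110329 and 78131 peaks in DMR1, DMR2, DMR3, DMR4 and DMR6, and H3K4me1 gave 138248, 165394, 130602, 135599 and 158274. Every H3K4me1 list was thus longer than every H3K27ac list. Each of the 12 libraries shared most covered bases with another library of the same mark and tissue, out of the 26 other histone libraries of the species (Jaccard index, shared over total covered bases, 0.414 to 0.633). Read depth is unknown, because the lists hold no reads.

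The 2 H3K4me3 libraries stood apart from each other. The median H3K4me3 peak was 339 bases wide in DMR1 and 726 in DMR4, the narrowest peaks were 133 and 200 bases, and the median fold was 8.39 and 17.4. Fold here is the enrichment over background that the authors' peak caller wrote for each peak, and it is compared only between peaks of one list. Results with H3K4me3 therefore rest on 2 unlike libraries and are given for each animal without a test.

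H3K27ac peaks were on average narrower than H3K4me1 peaks, with overlapping ranges. The median width of H3K27ac peaks was 391, 540, 439, 394 and 459 bases in DMR1, DMR2, DMR3, DMR4 and DMR6 and that of H3K4me1 peaks was 580, 629, 428, 565 and 460 bases. In DMR3 and DMR6 the medians of both marks were nearly the same. The mean difference of H3K27ac minus H3K4me1 was -87.8 bases and did not pass the test (two-sided exact permutation test, 5 against 5 libraries, p = 0.0873, adjusted p = 0.133 over 7 comparisons between marks, Benjamini-Hochberg).

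The marks covered very different amounts of the genome. H3K4me3 peaks covered 18.7 Mb in DMR1 and 28.8 Mb in DMR4, H3K27ac peaks between 59.1 and 89.2 Mb, and H3K4me1 peaks between 75.3 and 159 Mb. As a share of the 2291 Mb spanned by scaffolds up to their last listed peak, this was 0.817% and 1.25% for H3K4me3, 2.58% to 3.89% for H3K27ac and 3.29% to 6.92% for H3K4me1. These shares are the frequency with which a base taken at random from the span lies in a peak. The difference in log2 covered bases was -1.62 for H3K4me3 minus H3K27ac and -2.24 for H3K4me3 minus H3K4me1, with no overlap of the groups, but 2 against 5 libraries cannot give a p under 0.0952 (adjusted p = 0.133 in both, exact permutation test). For H3K27ac minus H3K4me1 it was -0.62 with overlapping groups (exact permutation test, p = 0.0317, adjusted p = 0.111), and 0.021 with the same number of peaks from every library.

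Most H3K4me3 peaks lay under H3K27ac. In all overlaps below, a peak counted as overlapped when the shared stretch reached 50% of the shorter peak, and the other mark came from the same animal. H3K27ac overlapped 74.4% of H3K4me3 peaks in DMR1 and 80.9% in DMR4. H3K4me1 overlapped 33.4% of them in DMR1 and 55.6% in DMR4, so the animals were close for the first pair of marks and far apart for the second. When the H3K4me3 summit, the base of highest signal, had to lie inside an H3K4me1 peak, the shares were 25.1% and 30.7%. In the other direction, H3K4me3 overlapped 19.3% and 23.7% of H3K27ac peaks and 7.62% and 12.3% of H3K4me1 peaks. These shares moved with list length: with the 28820 strongest peaks of every library, H3K4me3 overlapped 49.98% of H3K27ac and 15.0% of H3K4me1 peaks, and H3K27ac and H3K4me1 overlapped 57.6% and 17.3% of H3K4me3 peaks (means of 2 animals).

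The enhancer pair of marks overlapped in part. H3K4me1 overlapped 62.3%, 75.2%, 55.2%, 65.2% and 64.0% of H3K27ac peaks in DMR1, DMR2, DMR3, DMR4 and DMR6, a mean of 64.4% ± 7.18 (SD, n = 5). H3K27ac overlapped 45.1%, 39.8%, 37.5%, 46.3% and 32.5% of H3K4me1 peaks in the same order, a mean of 40.2% ± 5.68 (n = 5). The lowest share of the first kind lay above the highest of the second. The difference of 24.1 percentage points had the smallest p the design allows but did not pass after adjustment (two-sided exact permutation test, p = 0.00794, adjusted p = 0.0556), and with the animals as pairs the p was 0.0625 (exact sign-flip test, adjusted p = 0.219). It also turned with list length: with the 28820 strongest peaks of every library, it was -3.44 points, and the share of H3K27ac peaks overlapped by H3K4me1 was 39.8%.

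**Figure D1:**
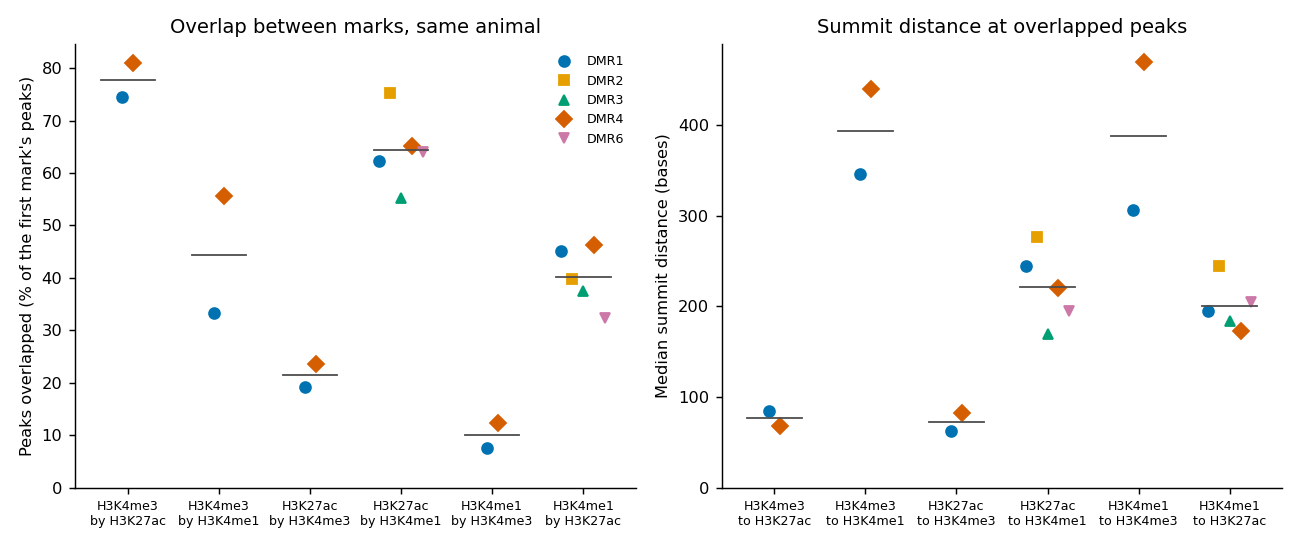
Left, share of one mark's peaks overlapped by another mark of the same animal (%); right, median distance between summits at overlapped peaks (bases). Each point is 1 animal and lines are means; H3K4me3 and H3K27ac summits lie under 100 bases apart in both animals, and H3K27ac peaks are overlapped by H3K4me1 more often than the reverse in all 5 animals.

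Summits of H3K4me3 and H3K27ac nearly coincided, while those of H3K4me3 and H3K4me1 were displaced. At overlapped peaks the median distance from the H3K4me3 summit to the nearest H3K27ac summit was 85 bases in DMR1 and 68 in DMR4. To the nearest H3K4me1 summit it was 346 and 440 bases. For scale, the median distance to the nearest H3K4me3 summit of the other animal was 74 bases from DMR1 and 50 from DMR4. H3K27ac summits were thus somewhat farther than the repeat of the same mark. Within 150 bases lay 61.6% for H3K27ac against 65.2% for the repeat in DMR1. In DMR4 the shares were 70.9% and 89.0%.

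Distances from H3K27ac to H3K4me1 summits fell between these. The medians were 244, 276, 170, 220 and 195 bases in DMR1, DMR2, DMR3, DMR4 and DMR6, a mean of 221 ± 41.3 (SD, n = 5). The same mark compared between animals gave 80.1 ± 4.54 bases for H3K27ac and 153 ± 17.4 for H3K4me1 (mean over 5 animals, each averaged over the other 4). Each of the 5 distances between marks was therefore above the mean distance between animals for either mark, though single pairs of H3K4me1 libraries reached 214 bases.

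H3K4me1 summits lay farther from H3K27ac summits at sites with H3K4me3. Where an H3K27ac peak overlapped by H3K4me1 also carried H3K4me3, its summit lay a median of 480 bases from the H3K4me1 summit in DMR1 and 395 in DMR4. Without H3K4me3 the distances were 217 and 193 bases. The H3K27ac summit lay inside an H3K4me1 peak for 52.0% and 60.8% of the peaks with H3K4me3, and for 93.2% and 94.7% of those without. Among H3K27ac peaks overlapped by H3K4me1, both animals thus had H3K4me1 over the summit more often away from H3K4me3 than with it. The H3K27ac peaks with H3K4me3 were also wider (median 1166 and 1024 bases against 422 and 414), and the distances were not compared at like width.

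The centre of the strongest H3K4me3 peaks was nearly free of H3K4me1 peaks. H3K4me3 peaks were split into 4 groups of nearly equal size by fold within each list. In the lowest group, 32.9% of summits in DMR1 and 55.2% in DMR4 lay in an H3K4me1 peak, and in the highest group 6.28% and 7.22% did. H3K27ac showed the opposite order, covering 39.1% and 60.8% of summits in the lowest group and 98.4% and 99.1% in the highest. Peaks of the highest group were also wider, with medians of 909.5 and 1615 bases against 133 and 284 in the lowest.

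H3K4me1 returned on the flanks of those strong peaks. At 1000 bases downstream or upstream along the scaffold, 41.3% to 43.4% of positions lay in an H3K4me1 peak in the highest group. H3K4me1 peaks within 1000 bases on both sides but not over the summit were found for 22.2% of these H3K4me3 peaks in DMR1 and 25.5% in DMR4, and on 1 side for 51.4% and 50.4%. In the lowest fold group, H3K4me1 on both sides with an uncovered summit was seen for 5.76% and 7.16%. More summits of that group were covered, 32.9% and 55.2%, and covered summits cannot count, so part of this gap follows from the measure. The animals, which differed in the overall overlap of H3K4me3 with H3K4me1, were alike in this pattern.

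**Figure D2:**
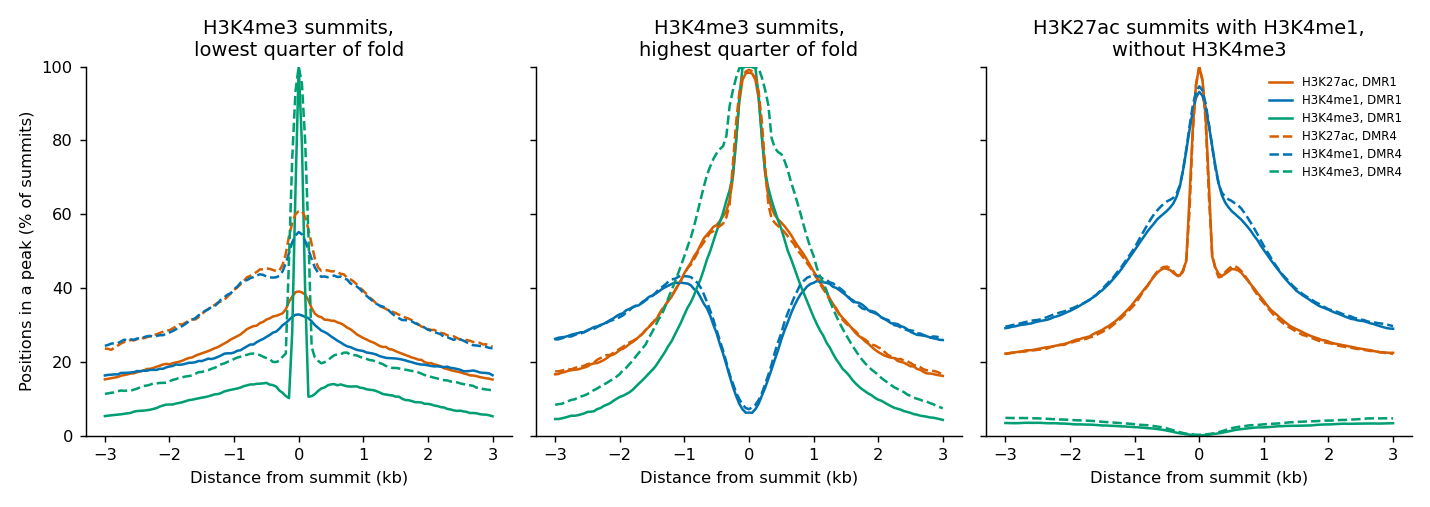
Share of positions inside a peak of each mark (%) against the distance from a summit (kb), for H3K4me3 summits in the lowest and highest of 4 fold groups and for H3K27ac summits with H3K4me1 and without H3K4me3; solid lines are DMR1 and dashed lines DMR4. H3K4me1 dips to 6.28% and 7.22% at the strongest H3K4me3 summits, which were not chosen by H3K4me1. It reaches 93.2% and 94.7% at the H3K27ac summits, whose peaks were chosen for overlap by H3K4me1, so high values there follow largely from the choice.

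Peaks with 3 marks were the strongest H3K27ac peaks. In DMR1 the median fold of H3K27ac peaks was 4.55 alone, 5.92 with H3K4me1, 11.3 with H3K4me3 and 16.2 with both. In DMR4 it was 4.70, 6.01, 10.5 and 15.1 in the same order. H3K27ac fold thus had the same order of classes in both animals, and H3K4me3 went with a larger step than H3K4me1. Of the H3K27ac peaks, 30904 in DMR1 and 25274 in DMR4 were alone, and 9842 and 12975 carried both other marks (8.60% and 11.8%). Those with H3K4me1 and no H3K4me3 were the most frequent, at 53.7% and 53.4%.

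The same order held in the other animals when the H3K4me3 peaks found in both DMR1 and DMR4 were applied to all 5. The log2 ratio of the median H3K27ac fold to that of lone peaks of the same list was then 0.34 to 0.39 with H3K4me1, 1.09 to 1.36 with H3K4me3 and 1.56 to 1.94 with both. These ranges over 5 animals did not overlap. A lone peak here is one without either of the other marks.

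H3K4me1 fold separated the classes less than H3K27ac fold did. Its median was 4.32 alone, 5.52 with H3K4me3, 5.83 with H3K27ac and 6.13 with both in DMR1, and 4.47, 5.20, 6.28 and 6.09 in DMR4. Between lone and 3-mark peaks the log2 ratio was 0.50 in DMR1 and 0.45 in DMR4, against 1.83 and 1.69 for H3K27ac. Of the H3K4me1 peaks, 53.1% in DMR1 and 50.2% in DMR4 were alone.

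H3K4me3 fold had the same order of classes in both animals, but the size of the steps differed. Its median was 4.47 alone, 5.18 with H3K4me1, 15.1 with H3K27ac and 8.23 with both in DMR1. In DMR4 it was 6.93, 7.26, 26.4 and 24.5. H3K27ac went with a higher H3K4me3 fold in both animals, whereas peaks with both marks lay well below those with H3K27ac in DMR1 and close to them in DMR4. Taking all H3K4me3 peaks with H3K4me1 against those without, the log2 fold ratio was -0.41 in DMR1 and 0.31 in DMR4, so these data give no common direction. With the 28820 strongest peaks of every library, the log2 fold of peaks with 3 marks against lone peaks was smaller for each mark, 0.09 for H3K4me3, 0.96 for H3K27ac and 0.16 for H3K4me1 (means over 2 animals).

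**Figure D3:**
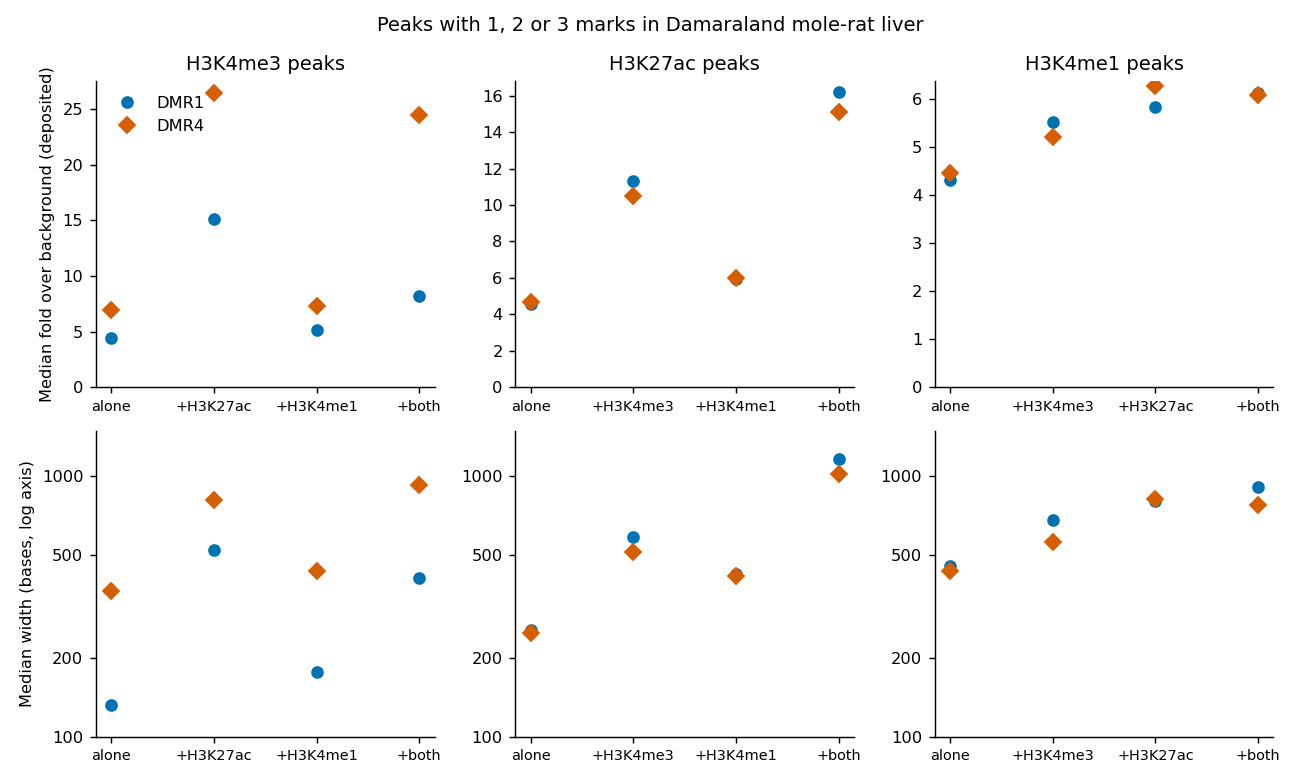
Median fold over background (top, linear axis from 0) and median width in bases (bottom, log axis) of peaks of each mark in DMR1 and DMR4, by the other marks that overlap them. The H3K27ac panels show a step from lone peaks (4.55 and 4.70 in fold) to peaks with both other marks (16.2 and 15.1), while the H3K4me3 values with both marks differ between the animals (8.23 and 24.5).

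Wide peaks overlap other peaks more easily, and width moved with fold. Lone H3K27ac peaks had a median width of 256 bases in DMR1 and 250 in DMR4, and those with 3 marks 1166 and 1024. Across the H3K27ac peaks overlapped by H3K4me1, Spearman's rho between fold and width was 0.759 to 0.810 in the 5 lists, while rho between the folds of both marks at the same sites was 0.148 to 0.199. These are correlations over 46751 to 71935 peaks of 1 list, which are not independent replicates.

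Pairs of marks were therefore also compared within 4 width groups of each list. Peaks of a group still differed in width, and the widest group has no upper bound, so relations to fold are not shown at equal width. For H3K4me1 peaks, overlap by H3K27ac kept its relation to fold: in the widest of 4 width groups of a list, 79.3% ± 8.00 of the peaks with fold above the median of that group were overlapped and 56.8% ± 8.19 of the others (SD, n = 5). The stronger peaks were overlapped more often in 5 of 5 animals in each of the 4 width groups. For H3K27ac peaks, overlap by H3K4me1 did not: in the widest group it was 78.1% ± 6.30 for stronger and 83.0% ± 4.85 for weaker peaks, lower for stronger peaks in 5 of 5 animals. In the narrowest group it was 52.8% ± 7.27 and 51.3% ± 7.73. Without the split by width, H3K27ac peaks with H3K4me1 had a higher median fold than those without in 5 of 5 animals, a log2 ratio of 0.29 ± 0.033, and H3K4me1 peaks with H3K27ac one of 0.43 ± 0.11 (exact sign-flip test, p = 0.0625 in both, the smallest p that 5 animals allow).

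Overlap of H3K27ac by H3K4me3 behaved like the first of these. In the widest group of H3K27ac peaks, H3K4me3 overlapped 56.3% of the peaks above the group's median fold in DMR1 and 62.0% in DMR4, against 21.0% and 24.0% of the others. The difference grew with width, from 3.94 percentage points in the narrowest group to 36.6 in the widest (means of 2 animals).

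Lone peaks were found again less often in other animals. Of lone H3K27ac peaks, 40.7% in DMR1 and 41.1% in DMR4 were overlapped by an H3K27ac peak of another animal (mean over the 4 others), compared with 62.0% and 63.2% of those with H3K4me1, 90.8% and 88.4% of those with H3K4me3 and 91.8% and 90.7% of those with both. H3K4me1 peaks followed with 53.3% and 55.1% alone and 82.8% and 82.7% with H3K27ac. Lone H3K4me3 peaks of DMR1 were seen in DMR4 for 39.4% and those with H3K27ac for 96.4%, and from DMR4 to DMR1 the shares were 47.6% and 82.3%. Lone H3K27ac peaks also reached a −log10 q of 4 less often, at 67.0% in DMR1 and 63.2% in DMR4 against 96.0% and 94.5% of those with both other marks. H3K4me3 in DMR4 did not follow this order, with 89.98% of lone peaks and 86.3% of those with H3K4me1 and no H3K27ac.

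Merging the peaks of all marks that touch by at least 1 base gave 165089 regions in DMR1 and 152280 in DMR4. H3K4me1 only was the most frequent combination, with 66076 and 62326 regions, followed by H3K27ac with H3K4me1, the combination usual for active enhancers, with 44323 and 42083. H3K27ac only made up 26223 and 21884 regions. All 3 marks together were found in 14376 and 16347 regions. H3K4me3 with H3K27ac made 6391 and 4672, H3K4me3 only 6056 and 3114, and H3K4me3 with H3K4me1, without H3K27ac, 1644 and 1854. This order moved with list length: with the 28820 strongest peaks of every library, H3K4me1 only (12422) was followed by H3K4me3 only (10494), H3K4me3 with H3K27ac (8475) and H3K27ac with H3K4me1 (7727, means of 2 animals). Regions with 3 marks were 8.71% and 10.7% of the number but 23.1% and 28.3% of the covered bases, with median widths of 1770 and 1898 bases.

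The combination was repeated between the animals most often for regions with 3 marks and for H3K27ac with H3K4me1. These were also the widest regions, with medians in DMR1 and DMR4 of 1770 and 1898 bases and of 1013 and 979. Medians were 249 and 245 bases for H3K27ac only and 443 and 424 for H3K4me1 only. The shares were not compared at like width. With the peaks of both animals merged, 40.3% of all 173118 regions had the same combination in both. Of the 3-mark regions of DMR1, 84.8% overlapped a 3-mark region of DMR4, and 71.4% did so from DMR4 to DMR1. For H3K27ac with H3K4me1 the shares were 64.7% and 69.8%, for H3K4me1 only 35.8% and 38.4%, for H3K27ac only 23.4% and 28.0%, and for H3K4me3 only 13.9% and 25.5%. H3K4me3 with H3K4me1 kept its combination for 35.8% and 31.6%, no more often than H3K4me1 only. Of the regions with H3K4me3 and H3K27ac but no H3K4me1 in DMR1, 48.0% overlapped a 3-mark region in DMR4, more than the 42.6% that kept their combination. From DMR4 to DMR1 these shares were 22.0% and 53.7%. Of the regions with only H3K27ac, 47.8% and 47.5% had no region of any kind in the other animal. The shares were similar for H3K4me1 only, 48.7% and 44.1%, and were 64.3% and 42.3% for H3K4me3 only.

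Transcription factors of liver were then placed on these regions. CEBPA, FOXA1, HNF4A, HNF6 and RXRA are regulators of hepatocyte genes, and 8 lists of them came from the same DMR1 and DMR4 animals: CEBPA, FOXA1 and RXRA from both, HNF6 from DMR1 and HNF4A from DMR4. The names of the factor files give the species and not the build, and their scaffold names match those of the histone lists. The factor lists held 19398 to 75849 peaks, of which 36.5% to 84.5% had their summit outside any marked region of the same animal. A 3-mark region held a factor summit in 10.3% to 55.6% of cases (median 20.2% over the 8 lists), the highest share of the 7 combinations in 8 of 8 lists. The median was 14.2% for H3K27ac with H3K4me1, 6.77% for H3K4me3 with H3K27ac and 2.92% for H3K4me1 only.

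Per length the order changed, since 3-mark regions were the widest. The median density was 113 factor summits per Mb in regions with H3K27ac and H3K4me1, 106 in 3-mark regions and 90.3 in regions with H3K4me3 and H3K27ac. It was 52.3 in regions with H3K4me1 only, 51.3 with H3K27ac only, 31.1 with H3K4me3 only and 27.8 with H3K4me3 and H3K4me1. Outside all regions it was 13.2 per Mb of the scaffold span. Regions with H3K27ac and H3K4me1 were denser than regions with either mark alone in 8 of 8 lists, and denser than 3-mark regions in 5 of 8. These orders did not hold throughout: with the 28820 strongest histone peaks of every library, the medians were 161 per Mb for H3K27ac only, 159.7 for H3K27ac with H3K4me1 and 126 for 3 marks. From the DMR4 lists alone they were 208 with H3K27ac and H3K4me1 and 220.3 with 3 marks, and from the DMR1 lists alone 93.1 and 72.5.

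The factors differed in this. CEBPA in DMR4 had 258 summits per Mb in regions with H3K27ac and H3K4me1 and 227 in 3-mark regions, and in DMR1 104 and 79.4. FOXA1 had 61.3 and 56.0 in DMR4 and 74.3 and 48.3 in DMR1. HNF4A had 157 and 214 and RXRA 268 and 323 in DMR4, with RXRA at 121 and 133 in DMR1. CEBPA, FOXA1 and HNF6 (82.5 and 65.6) were thus denser at the 2-mark regions, and HNF4A and RXRA at the 3-mark regions. The lists of 1 animal share their histone regions, and factor lists of different length were not set against each other, so these are values with no test.

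**Figure D4:**
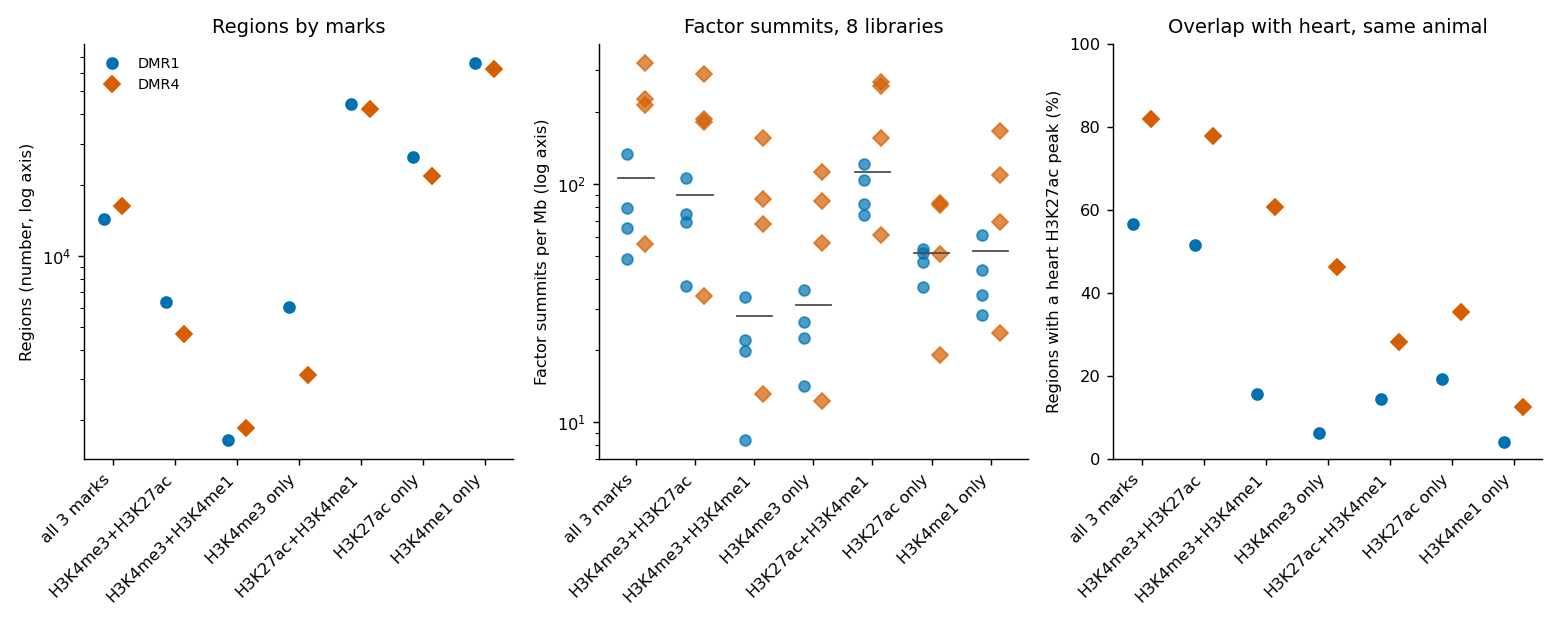
Number of regions (log axis), factor summits per Mb in 8 factor lists (log axis, lines are medians) and share of regions overlapped by an H3K27ac peak of the same animal's heart (%), for the 7 combinations of marks in DMR1 and DMR4. Factor density has its highest medians where H3K27ac is joined by another mark (113, 106 and 90.3 per Mb), an order not kept with equal numbers of peaks, and overlap with heart is highest where H3K4me3 and H3K27ac meet.

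Liver H3K27ac peaks with H3K4me3 overlapped a heart H3K27ac peak far more often than those without it. Of liver H3K27ac peaks with H3K4me3 but no H3K4me1, 55.5% in DMR1 and 83.9% in DMR4 overlapped an H3K27ac peak of the same animal's heart. Of those with H3K4me1 but no H3K4me3, 12.5% and 25.5% did, below the 18.4% and 34.4% of lone H3K27ac peaks. The H3K27ac peaks with H3K4me3 but no H3K4me1 were also wider than lone ones (median 585 and 513 bases against 256 and 250) and higher in fold. Sharing with heart was not compared at like width or fold. The heart H3K27ac list of DMR1 held 51446 peaks and that of DMR4 118481, and the part of list length in these levels was not tested. In all 4 animals with both tissues, H3K27ac peaks overlapped by H3K4me1 were found in heart less often than the others, with differences of -11.4, -14.8, -15.5 and -17.6 percentage points in DMR1, DMR2, DMR3 and DMR4. In DMR1 and DMR4 the others included 12245 and 13120 peaks with H3K4me3. Leaving out all peaks with H3K4me3, the gap was smaller, at 12.5% against 18.4% in DMR1 and 25.5% against 34.4% in DMR4. H3K4me1 peaks showed the reverse, with those overlapped by H3K27ac found in the heart H3K4me1 list more often than the others by 2.28, 14.2, 4.82 and 10.4 points. Peaks with H3K4me3 were not set apart in these differences.

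Libraries of one animal overlapped slightly more than libraries of different animals. The share of H3K27ac peaks overlapped by H3K4me1 was 64.4% on average with the animal's own H3K4me1 list and 60.9% with those of other animals, a difference of 3.46 percentage points (exact permutation of the pairing, two-sided, p = 0.0167, adjusted p = 0.025 over 3 measures). The share of H3K4me1 peaks overlapped by H3K27ac differed by 1.74 points (exact permutation of the pairing, adjusted p = 0.025). Both p-values are the smallest that 120 pairings allow. By share of H3K27ac peaks overlapped, 1 of 5 H3K27ac lists had its highest value with its own animal's H3K4me1 list. For the H3K4me1 lists it was 4 of 5. By share of H3K4me1 peaks overlapped, the counts were 2 of 5 and 3 of 5. The first share ranged from 55.2% to 75.2% in the same animal and from 47.4% to 74.0% between animals. The summit distance was 221 bases in the same animal and 226 between animals (exact permutation of the pairing, adjusted p = 0.233). The libraries came in 2 series of library numbers, "do" (DMR1, DMR2, DMR4) and "vl" (DMR3, DMR6), and within a series the differences were 2.13 and 0.563 points, where p cannot go under 0.167.

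In heart of the same species, H3K27ac and H3K4me1 overlapped differently. Heart H3K27ac peaks were overlapped by H3K4me1 for 40.2%, 46.3%, 34.8%, 42.1% and 15.9% in DMR1, DMR2, DMR3, DMR4 and DMR11, all below the lowest liver value of 55.2%. The difference of liver minus heart was 28.5 percentage points (two-sided exact permutation test, 5 against 5, p = 0.00794, adjusted p = 0.0397 over 10 comparisons). The DMR11 heart H3K4me1 list was the shortest, with 32893 peaks, and without that animal the difference was 23.5 points. With the 4 animals that gave both tissues as pairs, it was 23.6 points, and the p could not go under 0.125 (exact sign-flip test, adjusted p = 0.312). Within the library series it was 26.3 points (exact permutation test, adjusted p = 0.0667). With the 32893 strongest peaks of every library it was 13.0 points (exact permutation test, adjusted p = 0.0265). The share of H3K4me1 peaks overlapped by H3K27ac did not pass the test, with 40.2% in liver and 40.4% in heart (difference -0.13 points, exact permutation test, adjusted p = 0.984).

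The fold of H3K4me1 peaks was tied to H3K27ac more in liver than in heart. The log2 ratio of median fold, overlapped by H3K27ac against not, was 0.41, 0.58, 0.26, 0.47 and 0.42 in liver of DMR1, DMR2, DMR3, DMR4 and DMR6 and 0.19, 0.24, 0.15, 0.18 and 0.11 in heart of DMR1, DMR2, DMR3, DMR4 and DMR11. The lowest liver value was above the highest heart value, and the difference was 0.25 (two-sided exact permutation test, p = 0.00794, adjusted p = 0.0397). With the animals as pairs it was 0.24 (exact sign-flip test, adjusted p = 0.312), and within the library series 0.23 (adjusted p = 0.0667). With the 32893 strongest peaks of every library it was much smaller, 0.048 (exact permutation test, adjusted p = 0.0265). The same ratio for H3K27ac peaks was 0.29 ± 0.033 in liver and 0.32 ± 0.10 in heart (SD, n = 5; exact permutation test, adjusted p = 0.685).

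With the full lists, no measure passed the test between the livers of the mole-rats. With the 32893 strongest peaks of every library 1 did, the log2 fold ratio of H3K27ac peaks, with a difference of 0.16 (exact permutation test, adjusted p = 0.0265, against 0.0265 to 0.786 over all alternatives). In naked mole-rat liver, H3K4me1 overlapped 57.7% ± 3.47 of H3K27ac peaks (SD, n = 5), against 64.4% ± 7.18 in Damaraland mole-rat liver (exact permutation test, p = 0.0794, adjusted p = 0.265). H3K27ac overlapped 36.6% ± 7.33 of H3K4me1 peaks there (adjusted p = 0.567, exact permutation test). The median summit distance was 199.8 ± 26.1 bases against 221 ± 41.3 (exact permutation test, adjusted p = 0.567). The log2 fold ratios were 0.22 ± 0.087 for H3K27ac (exact permutation test, adjusted p = 0.397) and 0.43 ± 0.055 for H3K4me1 (adjusted p = 0.984). These tests do not show that the species are alike.

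**Figure D5:**
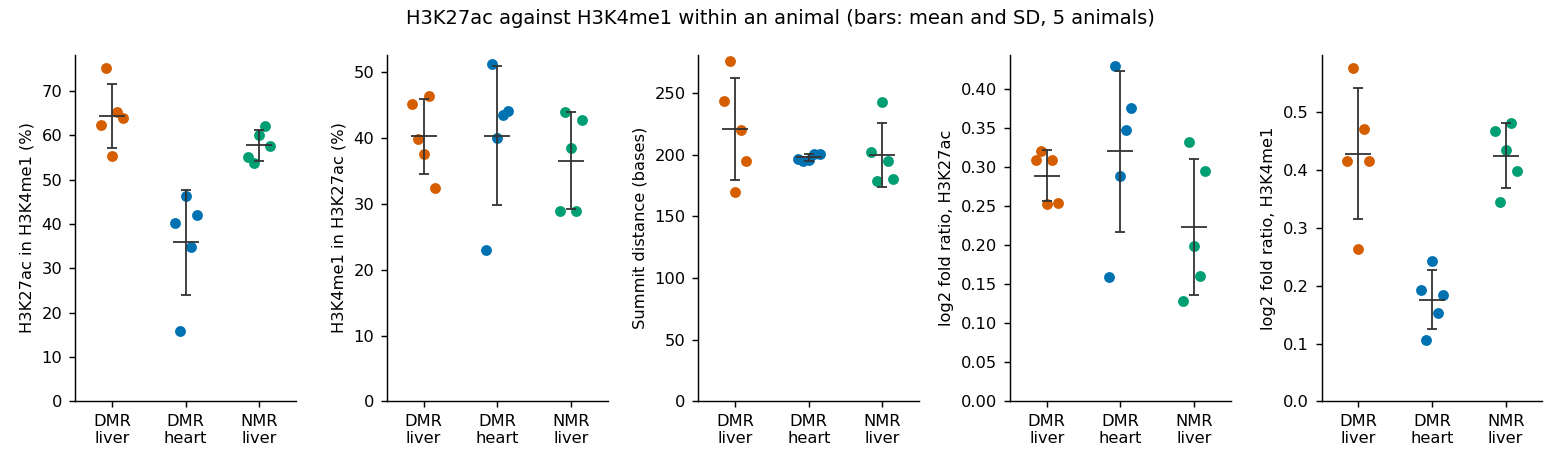
Overlap (%), summit distance (bases) and log2 fold ratio of H3K27ac and H3K4me1 within an animal, in Damaraland mole-rat (DMR) liver and heart and naked mole-rat (NMR) liver; points are animals, bars mean and SD of 5. Liver and heart points do not overlap for the share of H3K27ac peaks in H3K4me1 (64.4% and 35.8% on average) or for the log2 fold ratio of H3K4me1 peaks (0.43 and 0.18).

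Single regions with high folds are given for each combination. They were chosen by their folds in DMR1 and DMR4 and are extremes, not typical members. For each combination found identically in DMR1 and DMR4, the 2 regions with the highest score were taken. The score was the lowest percentile of the region's highest fold within its list, over these animals and the marks present. A leading region thus need not rank first in each mark. Positions are those of the authors' assembly DMR_v1.0, counted from 1, and no gene was assigned. The leading 3-mark region lay at KN122326.1:4231679-4257798 and was 26120 bases long, against medians of 1770 and 1898 bases for 3-mark regions of DMR1 and DMR4. Its highest H3K4me3 fold was 71.8 in DMR1 and 211 in DMR4, its H3K27ac fold was 45.3 to 70.2 over the 5 animals and its H3K4me1 fold 9.79 to 16.1. CEBPA, FOXA1, HNF4A and RXRA had summits there, in 6 of the 8 factor lists.

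The leading region with H3K27ac and H3K4me1 but no H3K4me3 lay at KN121896.1:7047061-7051280, 4220 bases long. It was listed in all 5 animals for both marks, with H3K27ac folds of 23.0 to 54.5 and H3K4me1 folds of 9.13 to 20.6, and 6 of the 8 factor lists had a summit in it. Heart of the species had a peak there in 2 of 5 libraries of each of these marks and in none of the 5 H3K4me3 libraries. The next such region, KN122233.1:1173109-1176958, carried H3K27ac and H3K4me1 in 5 of 5 heart libraries as well, and H3K4me3 in 2 of 5.

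Leading regions of the other combinations were less uniform. The leading region with H3K4me3 and H3K4me1, KN122106.1:8069203-8070399, had no factor summit and an H3K4me3 fold of 21.5 in DMR1 and 62.1 in DMR4. Its H3K27ac, unlisted in those 2 animals, was listed at 3.89 in DMR2 and 5.36 in DMR3, so the combination did not hold in all 5 livers. The leading region with H3K4me3 and H3K27ac was 456 bases long at KN123687.1:2766-3221, with no H3K4me1 peak in any of the 5 animals, on a scaffold whose last listed peak ended at base 3269. Both leading regions with H3K27ac only, KN123645.1:1-613 and KN104385.1:1-250, began at the first base of scaffolds whose last listed peak ended at 11594 and 907 bases. Scaffolds not reaching 1 Mb held 8.48% and 8.19% of H3K27ac-only regions in DMR1 and DMR4, 6.82% and 6.70% of those with H3K27ac and H3K4me1 and 12.2% and 14.2% of those with H3K4me3 and H3K27ac.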

How the data were processed

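The measurements are ChIP-seq peak lists, 1 per library against a named input, per the file names. The submitters' processing notes name MACS2 as peak caller. The aligner was not given in the sources used here. Start, end and summit of each peak, a fold over background (a linear ratio) and −log10 p-values and q-values were deposited by the authors. The build is DMR_v1.0 per the names of the histone files. No peaks overlapped within a list. Peaks counted as overlapping when the shared bases reached 50% of the shorter.

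Group and animal came from the labels. The H3K27ac and H3K4me1 libraries were paired by animal, and same-animal pairs were compared with pairs of different animals (3.46 percentage points more overlap, exact permutation of the pairing, p = 0.0167). That comparison does not show that each animal label is right. Marks, tissues and species were compared with 1 value per library by two-sided exact permutation tests, adjusted by Benjamini-Hochberg within families of 7, 3 and 10 tests at 0.05, and fold ratios by exact sign-flip tests. Overlap, distance and merging were tried on simulated lists. The permutation tests between groups, also within series, and the sign-flip test were tried on small sets of numbers with known p. The permutation of the pairing was not tried in this way. Work was done in Python 3.11.15 with NumPy 2.4.6, pandas 2.3.3, SciPy 1.17.1 and Matplotlib 3.10.9.

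Alternatives were an overlap of 1 base, summits inside peaks, a −log10 q of at least 4, equal numbers of peaks (the 28820 with the highest −log10 p, or 32893 between tissues and species), joining within 500 bases, scaffolds reaching 1 Mb, each animal left out, library series and a replicate block. Members, lists and tests were chosen with earlier results of these data known. The available gene annotation belongs to another build, so genes, planned cell type markers and sequences were not used here.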

Additional observations from a re-analysis of the deposited data

Results flagged for a closer look

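The log2 ratio of median fold between H3K4me1 peaks overlapped by H3K27ac and the other H3K4me1 peaks differed between tissues of the Damaraland mole-rat, by 0.25 for liver minus heart (0.43 ± 0.11 against 0.18 ± 0.051, SD, n = 5; two-sided exact permutation test, adjusted p = 0.0397 over 10 comparisons). All 5 liver values lay above all 5 heart values. H3K4me1 lists held 32893 to 158541 peaks in heart and 130602 to 165394 in liver. With the 32893 strongest peaks of every library the difference was 0.048 (exact permutation test, adjusted p = 0.0265), and with the animals as pairs it was 0.24 (exact sign-flip test, adjusted p = 0.312). None of 23 groups of 5 animals held a value far from the others by Dixon's criterion, which chance passes for about 1 group in 20.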

How the results depend on the processing

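Of 580 values recomputed under an alternative, 453 were counted as the same. Tests had to keep their direction and their side of the threshold. Values without a test had to stay within the spread between animals or factor lists, and numbers of regions within a set ratio. Some could not change. Widths and covered bases do not depend on the overlap rule, and shares and distances with H3K4me3 use only DMR1 and DMR4. Tests whose smallest possible p lies above the threshold could not cross it. The count is thus no measure of robustness. The cause of the changes in the other values was not tested unless named.

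Equal numbers of peaks changed most, and by construction removed the difference in list length. Differences between marks became -3.44 percentage points for the asymmetry of overlap, -649.2 and -559.8 bases for the width of H3K4me3 minus H3K4me1 and minus H3K27ac, and 0.0207 for log2 covered bases of H3K27ac minus H3K4me1. H3K27ac and H3K4me1 overlapped 57.6% and 17.3% of H3K4me3 peaks, H3K4me3 and H3K4me1 overlapped 49.98% and 39.8% of H3K27ac peaks, and H3K4me3 overlapped 15.0% of H3K4me1 peaks. Summits of H3K4me1 lay 578 bases from H3K4me3 and 389.5 from H3K27ac. The log2 fold of peaks with 3 marks against lone ones was 0.0901 for H3K4me3, 0.96 for H3K27ac and 0.16 for H3K4me1. Regions numbered 5159.5 with 3 marks, 8475 with H3K4me3 and H3K27ac, 7727 with H3K27ac and H3K4me1, and 10494, 5516 and 12422 with H3K4me3, H3K27ac or H3K4me1 only (means of 2 animals). Liver minus heart for H3K4me1 peaks in H3K27ac was 10.5 points. The log2 fold ratios against naked mole-rat liver were 0.156 for H3K27ac (exact permutation test, adjusted p = 0.0265) and -0.0097 for H3K4me1. The distance between same and other animals was -20.0 bases (exact permutation of the pairing, adjusted p = 0.0167).

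With an overlap of 1 base, H3K4me1 overlapped 60.7% of H3K4me3 and 71.6% of H3K27ac peaks, H3K4me3 overlapped 14.3% of H3K4me1 peaks, the H3K4me3 to H3K4me1 distance was 493 bases, the distance between same and other animals -11.35 and the H3K27ac fold ratio of liver minus heart 0.0632. With summits inside the other peak, the shares were 27.9% of H3K4me3 and 56.1% of H3K27ac peaks in H3K4me1 and 34.0% of H3K4me1 peaks in H3K27ac. The distances to H3K4me1 were then 235.5 bases from H3K4me3 and 178.6 from H3K27ac, and the 3-mark log2 folds 0.25, 1.09 and 0.28 for H3K4me3, H3K27ac and H3K4me1. Liver minus heart was 28.3 points and 0.255 for the log2 fold ratio (exact permutation test, adjusted p = 0.0794 in both), and the H3K27ac ratio against naked mole-rat was -0.0173.

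Joining peaks closer than 500 bases gave width differences of 118.7 (H3K27ac minus H3K4me1) and -19.6 bases (H3K4me3 minus H3K27ac), 27.5% of H3K27ac peaks in H3K4me3, and distances of 97 (H3K4me3 to H3K27ac), 610.5 (H3K4me3 to H3K4me1), 450.2 (H3K27ac to H3K4me1) and -45.35 bases (same minus other animals). It gave 3-mark log2 folds of 2.07 for H3K27ac and 0.596 for H3K4me1, and 2855 regions with H3K4me3 and H3K27ac, 26239 with H3K27ac and H3K4me1, 12072.5 with H3K27ac and 40223 with H3K4me1 only. Liver minus heart for H3K4me1 peaks in H3K27ac was 0.146 points, and the H3K4me1 ratio against naked mole-rat -0.0122. Classified one by one, 12957 peaks had H3K4me3 and H3K27ac. At a −log10 q of at least 4, the H3K4me3 minus H3K4me1 width was -28.1 bases, the H3K4me1 overlap of liver minus heart 0.178 points and the 3-mark log2 fold of H3K4me1 0.38. With H3K4me3 of both animals applied to all 5, the last was 0.39.

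With the replicate block, pairing libraries by animal, liver minus heart was 23.6 points for H3K27ac in H3K4me1, 4.54 points for H3K4me1 in H3K27ac, 0.0046 for the H3K27ac and 0.24 for the H3K4me1 fold ratio, and the H3K4me3 minus H3K4me1 width was -40.0 bases. Within library series these were 26.3 points, 0.23 for H3K4me1 and -58.8 bases, and the own-animal differences 2.13 and 0.563 points. Leaving out each animal gave 23.5 to 31.1 points and 0.216 to 0.294 for the 2 tissue differences that passed (exact permutation test, adjusted p 0.0529 to 0.0794), 3.27 to 3.65 and 1.48 to 2.05 points for the own-animal differences (adjusted p = 0.125), -4.46 to 2.59 points for H3K4me1 in H3K27ac, -0.0336 to 0.0446 for the H3K4me1 ratio against naked mole-rat and -26.0 to 24.25 bases for the H3K4me3 minus H3K4me1 width.

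The H3K4me3 results rest on 2 libraries that differ in peak width and fold, and the lists carry no depth. A mark below the caller's threshold is unlisted and not shown to be absent, and fold cannot be compared between lists.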
